A study of Homo sapiens with 8 samples.

Results

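The comparison set the libraries with more CYP1B1 transcript against those with less, across 2 human colorectal cancer cell lines. All 8 RNA-seq libraries of the series entered it. The 4 CYP1B1-high libraries were 2 of RKO cells with CYP1B1 overexpression and 2 of SW480 cells labelled shNT, read here as a hairpin with no target. The 4 CYP1B1-low libraries were 2 of RKO control cells and 2 of SW480 cells with a hairpin against CYP1B1 (shCYP1B1). Genes were kept where they reached 5 CPM (read counts scaled to the total of the library) in every library, which left 9350 of the 16829 genes in the table (55.6%) and 93.7% to 98% of each library's counts. CREB5 was the gene just inside that limit, with a lowest value of 5.0023 CPM, and TUBB6 the gene just outside it, at 4.9954 CPM. Of the 7479 genes not kept, 2507 reached 5 CPM in at least 1 library, so genes silent in either line were not part of the comparison.

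RKO is a poorly differentiated colon carcinoma line, and SW480 is a colon adenocarcinoma line with a truncated APC gene. The title states the question, namely what more or less CYP1B1 does to transcript levels in proliferating cells. The cells received lentivirus, per the labels, and the control cells are described there only as CYP1B1 normal controls. The high state was reached by an added gene in RKO and by an unreduced resident gene in SW480, and the knockdown rested on 1 hairpin, so effects off its target cannot be told apart from those of CYP1B1. Whether replicates came from separate cultures is not stated, and a p-value here reflects no more than the spread among these libraries, possibly a technical one.

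CYP1B1 is a cytochrome P450 of the endoplasmic reticulum that oxidises oestrogens, polycyclic aromatic hydrocarbons and fatty acids. Its transcription is driven by the aryl hydrocarbon receptor, AHR, with its partner ARNT. It is low in most normal epithelia and is found at higher levels in many tumours.

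CYP1B1 itself was below the 5 CPM limit and was read from the unfiltered counts. RKO control cells had 0.697 and 0.726 CPM and RKO overexpression cells 443 and 526 CPM. In SW480 the gene stood at 1.43 and 2.20 CPM with shNT and at 0.354 and 0.29 CPM with shCYP1B1, the last value from 10 reads. The groups did not overlap in either line, so the labels held in every library. The steps were of very different size, however: a log2 fold change of 9.42 ± 0.18 (SE) in RKO and 2.44 ± 0.31 in SW480, with a difference of 6.98 (edgeR adjusted p = 7.83e-06). The RKO low group (mean 0.712 CPM, SD 0.0202, n = 2) lay between the SW480 low group (0.322, SD 0.0454, n = 2) and the SW480 high group (1.81, SD 0.541, n = 2). The counts do not separate the introduced from the resident gene. Total counts ran from 31550173 to 34921085 per library. The RKO overexpression libraries stood further from each other than any other pair, with 283 kept genes over 1.5-fold apart against 6 to 9 in the other 3 groups.

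Markers fixed for the labelled tissue were only partly present. The 12 colon epithelial markers in the table summed to 259 to 302 CPM in RKO and 5070 to 5530 CPM in SW480, and KRT20, CDX1, LGALS4 and CEACAM5 were at or near 0 in both lines. RKO also had little EPCAM (1.75 to 2.03 CPM) and CDH1 (0.145 to 0.242 CPM), both of which mark epithelial cells. In SW480 the hairpin groups differed in some of these markers: EPCAM was at 130 and 131 CPM with shNT and at 21.8 and 22.5 CPM with shCYP1B1, and KRT19 at 485 and 455 against 249 and 233 CPM. Others were higher with shCYP1B1: KRT8 was at 2120 and 2060 CPM with shNT and 2440 and 2430 with shCYP1B1, KRT18 at 2410 and 2320 against 2730 and 2790, and CDH1 at 5.93 and 6.56 against 9.6 and 8.62. The 6 endothelial markers summed to at most 2.63 CPM and the 8 fibroblast markers to at most 50.9 CPM. The immune list summed to 671 to 787 CPM in RKO and 11.1 to 27.8 CPM in SW480, nearly all of it CD68, a lysosomal protein, in RKO.

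Across both lines, high CYP1B1 went with more transcript of DNA replication genes and splicing factors, and with less of immediate-early genes and of YAP and TEAD target genes, counted by the members that passed. In a fit with cell line as a covariate, 1041 of 9350 genes (11.1%) passed the test at an adjusted p below 0.05. Of these 509 (5.44%) were higher and 532 (5.69%) were lower with high CYP1B1. The changes were small: their median absolute log2 fold change was 0.503, and 34 genes were past 2-fold, 16 higher and 18 lower. The groups did not overlap in either line for 1036 of the 1041, against 2519 (26.9%) of all kept genes. On the authors' FPKM values (log2 of FPKM plus 1), limma called 679 genes higher and 464 lower. On the counts scaled by library size only, edgeR called 620 higher and 470 lower, so the split between directions depended on the scaling of the libraries.

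The number of genes passing depended on single libraries and on the form of the test. Without shNT replicate 1 it was 5, without shNT replicate 2 it was 160, and without shCYP1B1 replicate 1 or 2 it was 118 or 50. Leaving out RKO control replicate 1 or 2 gave 394 or 335 genes, and leaving out RKO overexpression replicate 1 or 2 gave 1642 or 688. With the replicate number as a block it was 0, with 1922 genes at an unadjusted p below 0.05, while DESeq2 called 2187. All 1041 genes kept their sign in each of these fits. IGF2BP2, SMAD3, ABL2, SLC25A10 and CREB5 passed whichever library was left out, with an adjusted p of at most 0.0445. In each of the 11 gene lists described below, the number of members passing fell to 0 in at least 1 of the edgeR fits without a library, so each count is given with the list's median.

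**Figure D1:**
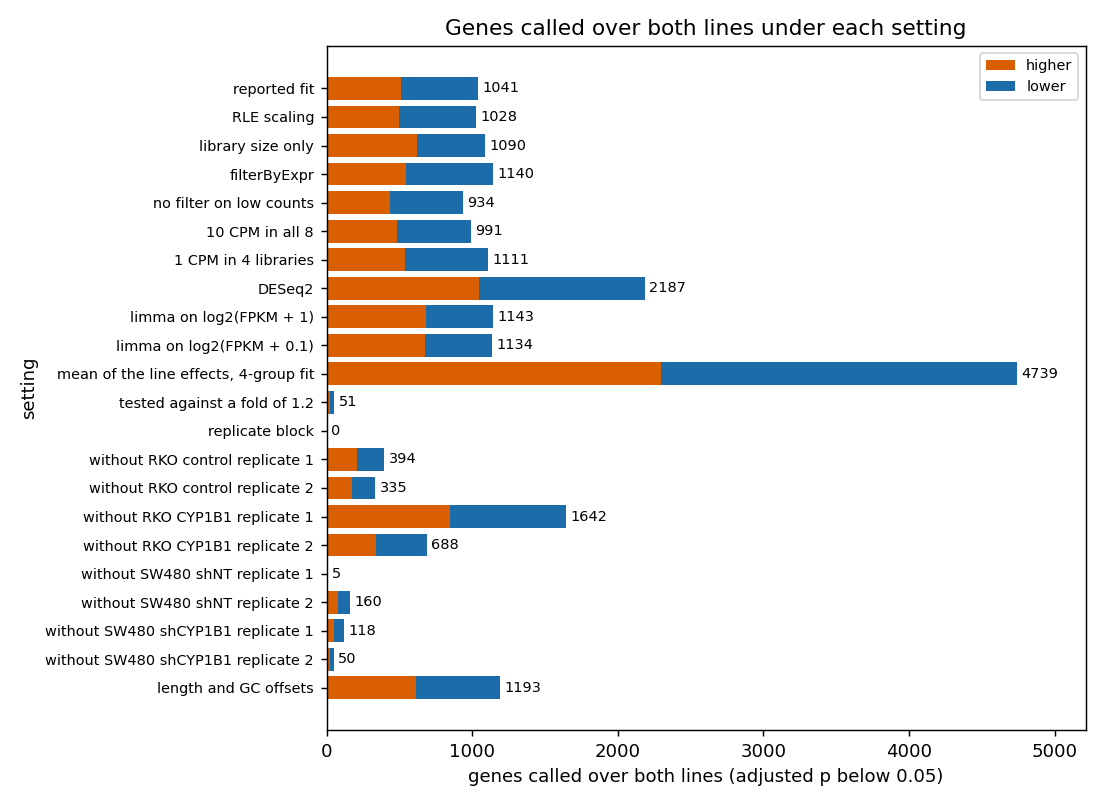
Genes passing the test over both lines (x axis, number of genes; orange higher, blue lower with high CYP1B1) under each setting (y axis). The reported fit gives 1041, the other scalings and filters 934 to 1140, and the fits without an SW480 library 5 to 160.

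The lines were then compared with each other. By the effect in each line, from a model of all 8 libraries, 3856 genes (41.2%) passed in RKO and 5361 (57.3%) in SW480. The effect differed between the lines for 5114 (54.7%). The sign was the same in both lines for 4421 of 9350 genes (47.3%), and across genes the effects had a Pearson r of -0.06 and a Spearman rho of -0.07, a description over genes that are not independent replicates. Genes passing in both lines numbered 2238: 977 (10.4% of those tested) in the same sense and 1261 (13.5%) in opposite senses. The same-sense genes comprised 477 higher (5.10%) and 500 lower (5.35%) with high CYP1B1, and 887 of them were also among the 1041. With each line fitted on its own, 734 genes passed in both lines in the same sense. The lines share no control libraries. Among the 1041, the effect was larger in SW480 for 669 genes. In RKO, overexpression replicate 2 lay further from the control mean than replicate 1 for 793 of them (76.2%).

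**Figure D2:**
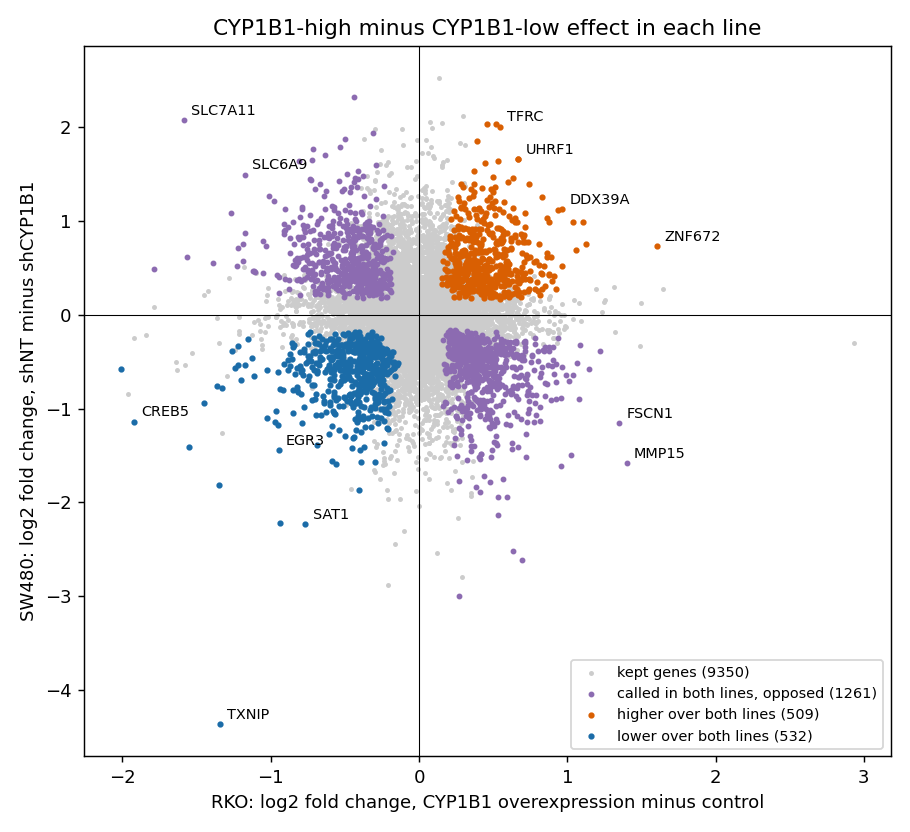
Each point is a kept gene, with its log2 fold change (high minus low CYP1B1) in RKO on the x axis and in SW480 on the y axis. Genes passing over both lines (orange 509, blue 532) fill the quadrants of equal sign, and 1261 genes (purple) passed in both lines with opposite signs.

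DNA replication genes were higher with high CYP1B1. Of 48 kept members of the S phase list, 19 rose and 1 fell over both lines (41.7% against 11.1% of all genes), with a median log2 fold change of 0.43 (all genes -0.01). The median was 0.26 in RKO and 0.65 in SW480, and 15 members passed as higher in both line effects. MCM3, a subunit of the replicative helicase, stood at 142 and 139 CPM in RKO control, 201 and 251 with overexpression, 148 and 156 with shCYP1B1 and 281 and 270.5 with shNT. In each line the high libraries lay above the low ones, and MCM3 rose by 0.77 ± 0.09 (log2, SE, adjusted p = 0.00897). PCNA, the sliding clamp of DNA polymerases, stood at 162 and 150.0 CPM in RKO control, 228 and 262 with overexpression, 145 and 132 with shCYP1B1 and 285 and 278 with shNT, a rise of 0.84 ± 0.10 (adjusted p = 0.01). LIG1, which joins Okazaki fragments, rose by 0.76 ± 0.08, and FEN1, the flap nuclease that trims them, by 0.93 ± 0.12. DUT, which clears dUTP from the nucleotide pool, rose by 0.63 ± 0.08. UHRF1, which binds hemimethylated DNA at replication forks, was at 133 and 134 CPM in RKO control, 165 and 259 with overexpression, 37.1 and 34.0 with shCYP1B1 and 115 and 108 with shNT. Its rise of 1.16 ± 0.22 was unequal, 0.67 in RKO and 1.65 in SW480 (adjusted p of the difference 0.00461). The single S phase gene that fell was RFC1 (-0.26), the large subunit of the clamp loader.

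Mitotic genes passed over both lines less often than S phase genes. Of 52 kept G2/M genes, 7 rose over both lines, a share (13.5%) near the 11.1% of all genes, and the median was 0.12. They included MYBL2 (0.48 ± 0.08), a transcription factor of cell cycle genes, NCAPH (0.56 ± 0.11), a condensin subunit, SPC25 (0.40 ± 0.09), a kinetochore protein, and CDC20 (0.43 ± 0.10), an activator of the anaphase-promoting complex. By the effect in each line, 20 of the 52 rose and 4 fell in RKO, and 17 rose and 10 fell in SW480. Of all genes, 41.2% passed in RKO and 57.3% in SW480. The sign was the same in both lines for 22 of the 52. In both lines, 5 passed in the same sense and 7 in opposite senses. MKI67, a widely used proliferation marker, stood at 563 and 537 CPM in RKO control, 372 and 669 with overexpression, 557 and 544 with shCYP1B1 and 754 and 846 with shNT. Its groups overlapped in RKO, and the value over both lines was 0.23 ± 0.19 (adjusted p = 0.451).

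Promoter windows of 5 of the replication genes are shown because they rose together and hold letters bound by E2F factors, which act on S phase genes. The windows run from 250 bases before to 10 after the start in RefSeq's GRCh38.p14, 5′ to 3′, with the E2F-type letters in capitals (TTTGGCGC, TTTCGCGC, TTTCCCGC or TTTGCCGC on either strand). MCM3 is at chr6:52284733-52284992, minus strand; PCNA at chr20:5126613-5126872, minus strand; LIG1 at chr19:48170335-48170594, minus strand. DUT is at chr15:48331947-48332206, plus strand, and UHRF1 at chr19:4909251-4909510, plus strand.
MCM3: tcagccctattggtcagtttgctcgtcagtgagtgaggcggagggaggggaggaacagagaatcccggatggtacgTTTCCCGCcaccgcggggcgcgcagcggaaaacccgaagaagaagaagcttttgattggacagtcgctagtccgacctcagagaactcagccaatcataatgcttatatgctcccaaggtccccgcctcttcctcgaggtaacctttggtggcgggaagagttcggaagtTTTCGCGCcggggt
PCNA: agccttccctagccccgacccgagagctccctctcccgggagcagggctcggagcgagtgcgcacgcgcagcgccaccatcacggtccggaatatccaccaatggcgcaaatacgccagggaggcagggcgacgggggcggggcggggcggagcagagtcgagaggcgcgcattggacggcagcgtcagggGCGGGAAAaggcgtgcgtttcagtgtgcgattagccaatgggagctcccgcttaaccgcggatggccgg
LIG1: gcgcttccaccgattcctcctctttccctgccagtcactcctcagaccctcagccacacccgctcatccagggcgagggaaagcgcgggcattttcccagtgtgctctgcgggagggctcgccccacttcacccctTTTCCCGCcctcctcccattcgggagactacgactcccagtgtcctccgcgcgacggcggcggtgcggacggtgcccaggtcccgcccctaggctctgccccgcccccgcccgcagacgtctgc
DUT: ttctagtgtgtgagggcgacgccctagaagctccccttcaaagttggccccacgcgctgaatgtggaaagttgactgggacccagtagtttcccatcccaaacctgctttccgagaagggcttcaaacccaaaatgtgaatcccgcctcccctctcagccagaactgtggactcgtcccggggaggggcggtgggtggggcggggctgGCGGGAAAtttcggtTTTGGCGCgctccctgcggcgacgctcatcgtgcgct
UHRF1: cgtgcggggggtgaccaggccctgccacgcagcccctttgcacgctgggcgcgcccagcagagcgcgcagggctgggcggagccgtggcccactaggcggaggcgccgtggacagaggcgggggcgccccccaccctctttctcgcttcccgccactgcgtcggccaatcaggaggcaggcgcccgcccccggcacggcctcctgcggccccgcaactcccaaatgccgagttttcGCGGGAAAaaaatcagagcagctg
Of the kept genes, 7842 of 9350 had a window in the RefSeq table (300 bases each, to 50 after the start), and 2297 had more than 1. Counting a gene where any of its windows holds the letters, 10.9% of the 433 genes called higher, 5.49% of the 455 called lower and 7.26% of all 7842 held an E2F-type match. The share over all 35116 windows was 3.31%. The E box CACGTG was in 17.1%, 13.8% and 13.5% of the same 3 sets, and GCGTG, the core of the AHR and ARNT site, in 64.9%, 59.6% and 61.2%. The windows' median GC content was 66.8% for genes called higher, 64.7% for those called lower and 65.3% for all, and its part in these shares was not tested. A match is a description of letters, and which start site these cells use is not known.

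Splicing factors also rose. Of 34 kept splicing factors 10 rose and 1 fell (32.4% against 11.1% of all genes). The median was 0.25 (0.15 in RKO and 0.31 in SW480). SRSF3, a serine- and arginine-rich splicing factor, was at 169 and 169 CPM in RKO control, 253 and 280.2 with overexpression, 115 and 112 with shCYP1B1 and 221 and 226 with shNT. It rose by 0.82 ± 0.09, more in SW480 (0.98) than in RKO (0.66, adjusted p of the difference 0.0166). SRSF2, a factor of the same family, rose by 1.04 ± 0.16, and HNRNPD, which binds AU-rich RNA, by 0.53 ± 0.08. RBFOX2, which controls alternative exons, fell by 0.56 ± 0.09. Outside the list, DDX39A, a helicase of splicing and mRNA export, was at 66.7 and 62.3 CPM in RKO control, 110.4 and 142 with overexpression, 51.2 and 45.3 with shCYP1B1 and 109 and 102 with shNT, a rise of 1.04 ± 0.10 (adjusted p = 0.00897).

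Some mitochondrial and proteasome genes rose, by small amounts. Of 76 kept nuclear-encoded subunits of oxidative phosphorylation, 14 rose, 18.4% against 11.1% of all genes (median 0.19; 0.25 in RKO and 0.07 in SW480). NDUFS6 (0.50 ± 0.07), NDUFB3 (0.57 ± 0.10) and NDUFB2 (0.70 ± 0.12) of complex I and ATP5MC3 (0.63 ± 0.10) of the ATP synthase had the smallest p. Of 74 mitochondrial ribosomal genes, 10 rose and 2 fell, MRPS31 (-0.58 ± 0.11) and MRPS18B (-0.32), with a median of 0.10 and of 0.00 in SW480. That share, 16.2%, was above the 11.1% of all genes, but with DESeq2 it was 21.6% against 23.4%, and in the 4-group model of the mean effect 44.6% against 50.7%. MRPL12, a large-subunit protein, rose by 0.60 ± 0.08, and MRPS17 and MRPS18A of the small subunit by 0.55 ± 0.10 and 0.53 ± 0.09. Of 37 proteasome genes 7 rose (18.9%, median 0.21), among them PSMD1 (0.43 ± 0.08), PSMC2 (0.37 ± 0.07), PSMA3 (0.38 ± 0.07) and PSMA7 (0.41 ± 0.07). SLC25A10, the mitochondrial dicarboxylate carrier, had the smallest p of any gene that rose. It was at 42.4 and 44.9 CPM in RKO control, 77.0 and 81.9 with overexpression, 29.7 and 33.5 with shCYP1B1 and 66.4 and 62.6 with shNT, a rise of 0.95 ± 0.08 (adjusted p = 0.00696).

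The remaining genes chosen for a small p were ATP13A2, a lysosomal polyamine transporter (0.81 ± 0.10), PAGR1, a subunit of histone methyltransferase complexes (1.04 ± 0.13), and LTBP3, which holds latent TGF-beta in the matrix (0.57 ± 0.07). Those chosen for their size were TFRC, SEMA3F, SLC2A6, ZNF672 and UHRF1. TFRC, the transferrin receptor that takes up iron, was at 119 and 109 CPM in RKO control, 142 and 192 with overexpression, 128 and 123 with shCYP1B1 and 489.6 and 513 with shNT. The shNT libraries stood far above all others, and the rise of 1.27 ± 0.28 (adjusted p = 0.0306) came from 0.55 in RKO and 2.00 in SW480. SEMA3F, a secreted guidance protein, and SLC2A6, a hexose transporter, had the same form, at 0.52 and 0.46 in RKO and 2.02 and 2.03 in SW480. ZNF672, a zinc finger protein, was the reverse, 1.60 in RKO and 0.73 in SW480, with RKO overexpression libraries at 271 and 455 CPM.

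Immediate-early and ERK feedback genes, which are switched on by growth factor signals and then damp them, were lower with high CYP1B1. Of 37 kept members 11 fell and 1 rose (32.4% against 11.1% of all genes). The median over both lines was -0.45, larger in size than the medians of RKO (-0.30) and SW480 (-0.26). It was -0.25 over both lines without RKO overexpression replicate 2. EGR3, a zinc finger transcription factor, was at 20.3 and 21.8 CPM in RKO control, 10.8 and 11 with overexpression, 55.9 and 57.4 with shCYP1B1 and 21.6 and 20.0 with shNT. Within each line its level was lower in the high group, a log2 fold change of -1.2 ± 0.12 (adjusted p = 0.00897). ETV5, a factor of the ETS family, fell by 0.50 ± 0.07. Members outside the examples included ATF3 (-1.49), DUSP6 (-0.88), JUN (-0.68) and ZFP36 (-0.70). BTG2, an antiproliferative gene, was the member that rose (0.58 ± 0.09). DUSP16, a phosphatase of JNK and p38 kinases that is not in the list, fell by 0.82 ± 0.09.

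Target genes of YAP and TEAD, factors that respond to cell contact and tension, fell too. Of 24 listed genes 17 were kept, and 8 of these fell (47.1% against 11.1% of all genes). The median was -0.37 in RKO and -0.38 in SW480. The sign was the same in both lines for 11 of the 17, and the effect differed between the lines for 7. CCN1, a secreted matrix protein that is in this list and the previous one, was at 433 and 409 CPM in RKO control, 259 and 156 with overexpression, 66.9 and 68.8 with shCYP1B1 and 33.5 and 29.9 with shNT. It fell by 1.06 ± 0.15 (adjusted p = 0.0113), with -1.02 in RKO and -1.1 in SW480. ASAP1, a GTPase-activating protein of focal adhesions, fell by 0.72 ± 0.07, AMOTL2, an angiomotin that binds YAP, by 0.55 ± 0.09, and GADD45B, a stress-response gene, by 0.72 ± 0.14.

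The mesenchymal and matrix list was lower mainly in SW480. Only 19 of its 46 genes were kept, and FN1, CDH2, ZEB2 and SNAI2 were among those under the 5 CPM limit. Over both lines 7 of the 19 fell (36.8% against 11.1% of all genes). The median was -0.07 in RKO and -0.86 in SW480. By the effect in RKO 4 members rose and 6 fell, and by that in SW480 1 rose and 15 fell. The sign was the same in both lines for 10 of the 19. ITGA5, the fibronectin receptor subunit, was at 219 and 214 CPM in RKO control, 164 and 142 with overexpression, 347 and 362 with shCYP1B1 and 141 and 149 with shNT. It fell by 0.50 in RKO and 1.29 in SW480 (adjusted p of the difference 2.21e-04). ITGB1, its partner subunit, fell by a like amount in each line, 0.38 and 0.36. LAMB3, a laminin chain, fell by 1.08 ± 0.22 and PLAU, the urokinase protease, by 0.91 ± 0.20.

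SMAD3, which carries TGF-beta signals to the nucleus, was among the most even changes of the comparison. It was at 158 and 153 CPM in RKO control, 85.8 and 90.4 with overexpression, 137 and 144 with shCYP1B1 and 78.0 and 82.6 with shNT. The fall was 0.82 in RKO and 0.81 in SW480, and 0.81 ± 0.07 over both (adjusted p = 0.00655). IGF2BP2, an RNA-binding protein that stabilises mRNAs, was at 281 and 309 CPM in RKO control, 162 and 165 with overexpression, 396 and 396 with shCYP1B1 and 219 and 234 with shNT, a fall of 0.83 ± 0.07 (adjusted p = 0.00655). ABL2, a tyrosine kinase that remodels actin, fell by 0.80 ± 0.07, although its level was 683 and 745 CPM in RKO control and 52.8 and 49.2 CPM with shCYP1B1. The others with the smallest p were DNMBP, an exchange factor for CDC42 (-0.98 ± 0.10), CREBRF, a regulator of CREB3 (-1.0 ± 0.11), NPC1, which exports cholesterol from lysosomes (-0.66 ± 0.07), and MAPK6, an atypical MAP kinase (-0.78 ± 0.09).

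Promoter windows of SMAD3 and ITGA5 are printed because both genes fell and both windows hold TGANTCA, in capitals, the letters bound by AP-1, the dimer of JUN and FOS proteins. These letters were in 10.1% of 455 called lower, 3.70% of 433 called higher and 6.31% of all 7842. The windows are at chr15:67125492-67125751, plus strand, and chr12:54419257-54419516, minus strand, on the same build. Where a gene has several windows, the first that holds the letters is shown.
SMAD3: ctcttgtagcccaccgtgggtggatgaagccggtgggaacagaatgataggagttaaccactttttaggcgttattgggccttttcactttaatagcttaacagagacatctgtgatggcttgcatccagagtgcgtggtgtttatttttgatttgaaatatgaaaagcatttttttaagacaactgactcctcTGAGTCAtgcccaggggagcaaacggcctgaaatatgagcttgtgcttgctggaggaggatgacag
ITGA5: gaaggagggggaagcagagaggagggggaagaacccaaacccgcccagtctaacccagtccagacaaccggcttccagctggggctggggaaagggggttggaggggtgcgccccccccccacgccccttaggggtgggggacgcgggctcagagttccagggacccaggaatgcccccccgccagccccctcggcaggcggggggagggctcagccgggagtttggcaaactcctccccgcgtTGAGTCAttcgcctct
The cyclic AMP response letters TGACGTCA, which AP-1 and CREB proteins bind, were in 5.71%, 2.08% and 4.25% of the same sets. The TEAD letters GGAATG were in 15.6% of genes called lower, 11.5% of those called higher and 14.3% of all, and in 14.0% of all windows. AP-1 letters were in 7.71% of all windows.

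**Figure D3:**
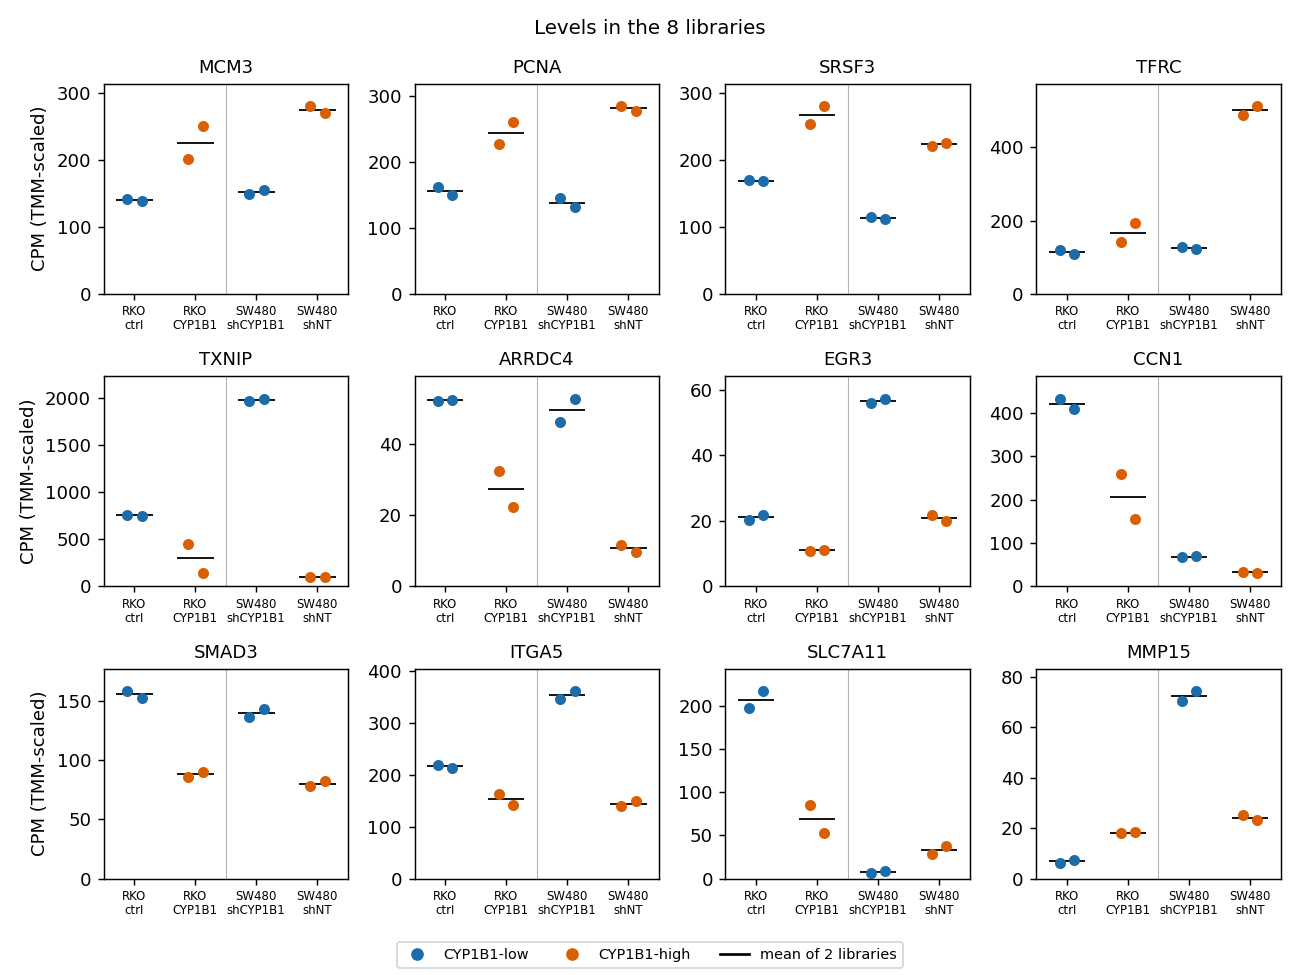
Levels (y axes, TMM-scaled CPM, from 0) of 12 genes in the 8 libraries by group (x axes), with CYP1B1-low libraries in blue, CYP1B1-high in orange and the mean of 2 libraries as a bar. MCM3, PCNA, SRSF3 and TFRC are higher and TXNIP, ARRDC4, EGR3, CCN1, SMAD3 and ITGA5 lower in the high groups of both lines, while SLC7A11 and MMP15 move in opposite senses.

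The falls of greatest size were in TXNIP, TSC22D3, ARRDC4, CREB5 and SAT1. TXNIP, an arrestin that binds thioredoxin and limits glucose uptake, was at 755 and 750.3 CPM in RKO control, 453 and 141 with overexpression, 1968 and 1996 with shCYP1B1 and 96.6 and 96.7 with shNT. The groups did not overlap, but the RKO overexpression libraries were themselves over 1.5-fold apart. The TXNIP effect was -1.34 ± 0.37 in RKO and -4.36 ± 0.42 in SW480 (adjusted p of the difference 8.97e-04), and -2.85 ± 0.69 over both (adjusted p = 0.0400). ARRDC4, an arrestin related to TXNIP, was at 52.0 and 52.3 CPM in RKO control, 32.2 and 22.1 with overexpression, 46.0 and 52.6 with shCYP1B1 and 11.4 and 9.69 with shNT, an effect of -1.57 ± 0.27. TSC22D3, a glucocorticoid-induced gene, was at 51.1 and 14.1 CPM in the RKO overexpression libraries against 85.7 and 81.1 in control, and fell by 1.58 ± 0.34 over both lines. SAT1, which acetylates polyamines for breakdown, fell in both lines, with -0.77 in RKO and -2.23 in SW480. CREB5, a factor that binds cyclic AMP response sites, fell more in RKO (1.92) than in SW480 (1.14, from levels of 12.7 and 14.0 to 6.97 and 5.11 CPM).

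TXNIP and ARRDC4 were counted in the hypoxia and glycolysis list, of which 4 of 37 kept members fell, a share of 10.8% against 11.1% of all genes. The other members that fell were BNIP3L, a mitophagy receptor (-0.64 ± 0.16), and EPAS1, a hypoxia-inducible factor (-0.35 ± 0.09). Neither passed by the effect in RKO (adjusted p = 0.0677 and 0.0633). The list's median was -0.14, and lay between -0.11 and 0.01 with a library left out (0.01 without RKO overexpression replicate 2). Of 33 kept ferroptosis genes 4 rose and 2 fell (18.2% against 11.1% of all genes), with a median of -0.01. Besides TFRC, VDAC3, a mitochondrial channel (0.53 ± 0.08), and STEAP3, an iron reductase (0.58 ± 0.13), were examples that rose. SAT1 (-1.50 ± 0.31) was an example that fell. The sign was the same in both lines for 14 of the 33, and 10 passed in both lines in opposite senses.

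**Figure D4:**
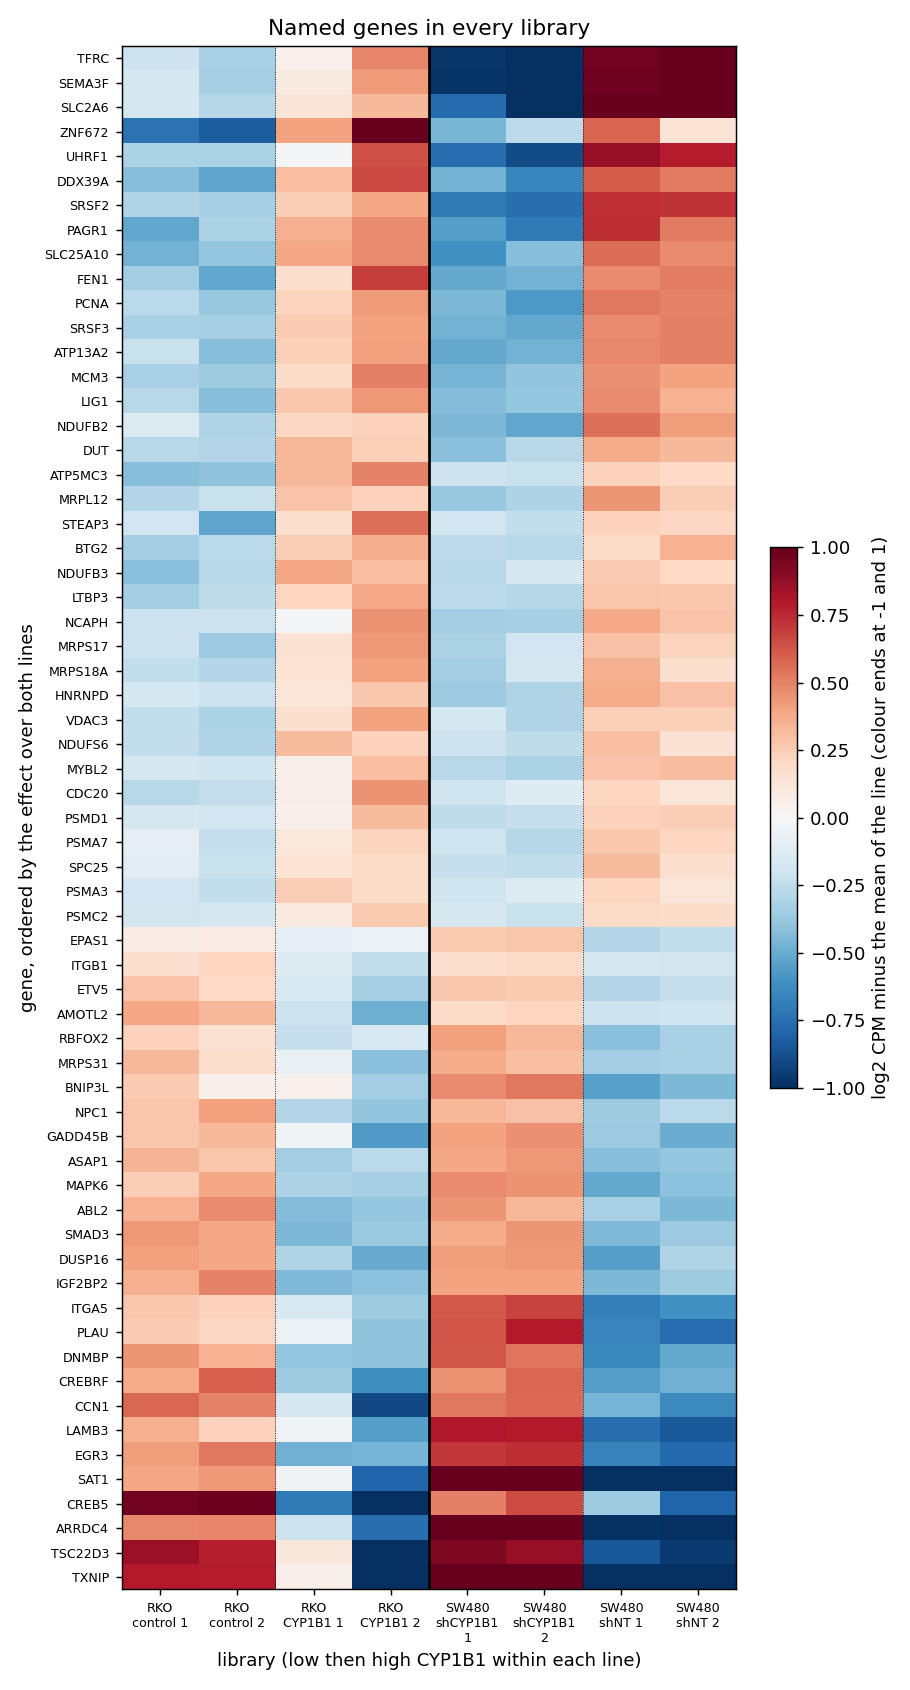
Rows are the genes chosen for small p, large fold or as list examples, columns the 8 libraries, and colour the log2 CPM minus the mean of that line's 4 libraries (ends at -1 and 1). The genes from TFRC down to PSMC2 are higher and those from EPAS1 to TXNIP lower in the high than in the low libraries of both lines, with RKO overexpression replicate 2 often further out than replicate 1.

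Other genes responded in opposite senses. SLC7A11, the cystine transporter that feeds glutathione synthesis, was at 197 and 217 CPM in RKO control, 85.0 and 52.9 with overexpression, 6.76 and 9.22 with shCYP1B1 and 29 and 38.0 with shNT. It fell by 1.58 in RKO and rose by 2.07 in SW480, so the value over both lines was near 0 (0.17 ± 0.76) and the difference was -3.65 ± 0.31. SLC6A9, a glycine transporter, PMAIP1, the BH3-only protein NOXA, ZNF697, a zinc finger protein, and NFAT5, the factor of osmotic stress, had the same form, with differences of -2.66, -2.34, -2.27 and -2.18. MMP15, a membrane-bound metalloproteinase, went the other way: 6.29 and 7.45 CPM in RKO control, 18.0 and 18.4 with overexpression, 70.5 and 74.2 with shCYP1B1 and 25 and 23.3 with shNT, a difference of 2.98 ± 0.15. FSCN1, which bundles actin (2.50), ZNF341, a transcription factor (2.52), PHETA1, an endosomal adaptor (2.58), and TRIM3, a ubiquitin ligase (1.82), also rose in RKO and fell in SW480.

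The counts of some lists were unlike in RKO and SW480, a difference not tested for the lists themselves. In RKO 1982 genes (21.2%) rose and 1874 (20.0%) fell, and in SW480 2573 (27.5%) rose and 2788 (29.8%) fell with high CYP1B1. Of 25 kept cholesterol synthesis genes 13 rose and 1 fell in RKO, and 2 rose and 17 fell in SW480. Of 33 chaperone genes 25 rose and 2 fell in RKO, and 1 rose and 12 fell in SW480. Of 77 cytosolic ribosomal protein genes 25 rose in RKO, while 2 rose and 23 fell in SW480. Fanconi and homologous recombination genes went the other way, with 2 of 34 rising and 12 falling in RKO and 21 rising and 5 falling in SW480. Of 34 ATF4 and amino acid response genes 24 fell in RKO, while 7 rose and 5 fell in SW480. Its medians had the same sign (-0.73 and -0.05), and 6 members passed in opposite senses. Of these 5 lists, between 1 and 4 members passed over both lines. The shares were 4% for cholesterol synthesis, 6.06% for chaperones, 1.3% for cytosolic ribosomal proteins and 8.82% for ATF4 genes, against 11.1% of all genes. The share of Fanconi and homologous recombination genes, 11.8%, was near that of all genes.

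**Figure D5:**
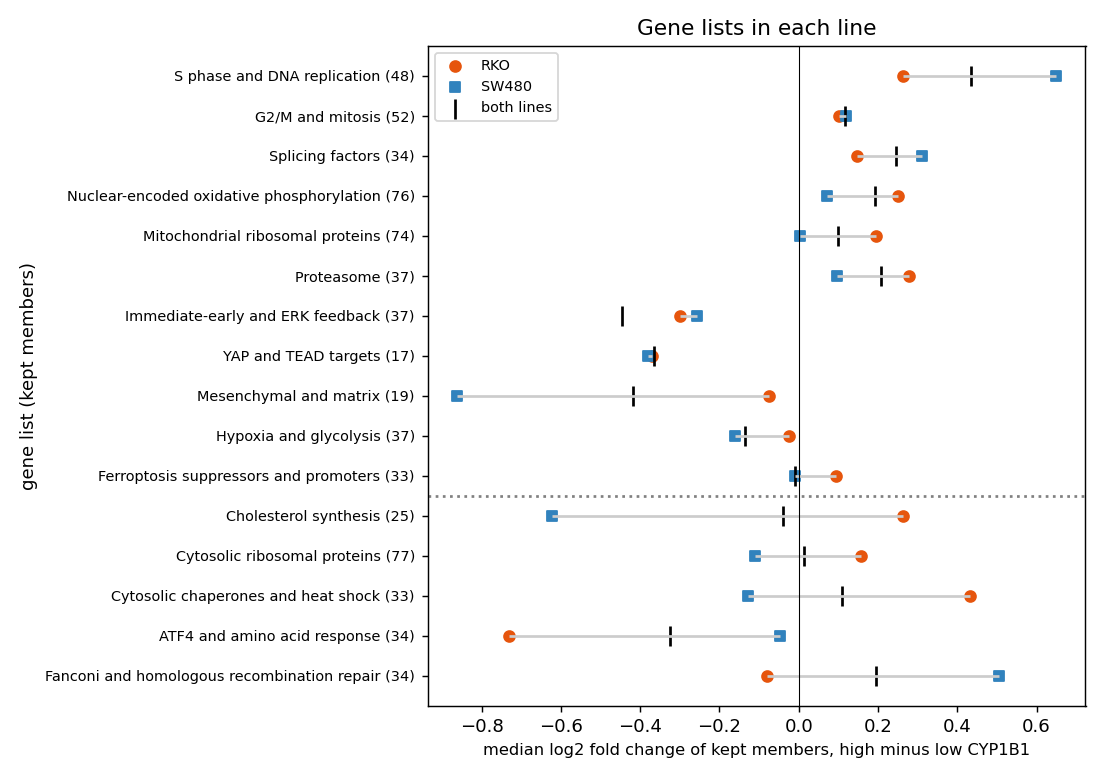
Median log2 fold change of kept members (x axis, high minus low CYP1B1) for 16 gene lists (y axis, number of kept members in brackets) in RKO (orange circles), SW480 (blue squares) and over both lines (black ticks). The upper 11 lists include the S phase list at 0.26 and 0.65 and the YAP and TEAD list at -0.37 and -0.38; for the 5 below the dotted line the value over both lines is between those of RKO and SW480.

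Of 20 kept genes of the AHR axis and oestrogen metabolism list, 1 passed over both lines (5% against 11.1% of all genes). It was HSD17B10, a mitochondrial dehydrogenase, which rose by 0.62 ± 0.09 and is named after its value was seen. AHR, the receptor that drives CYP1B1, was at 11.4 and 11 CPM in RKO control, 8.20 and 6.96 with overexpression, 38.8 and 41.7 with shCYP1B1 and 48.2 and 49.9 with shNT. It fell by 0.56 in RKO and rose by 0.28 in SW480 (adjusted p of the difference 0.00123). TIPARP, an AHR target that restrains it, had the same form (-0.42 and 0.19). ARNT was at -0.29 ± 0.08 (adjusted p = 0.0518), NQO1, a quinone reductase, at 0.17 ± 0.07, HSD17B12, a hydroxysteroid dehydrogenase, at -0.01 ± 0.08, and POR, the electron donor of microsomal P450s, at 0.12 ± 0.08. Among redox and lipid genes NFE2L2 was at -0.34 ± 0.13, GPX4, which reduces lipid peroxides, at -0.26 ± 0.18 (0.21 in RKO and -0.72 in SW480), and ACSL4, a fatty acid ligase, at -0.24 ± 0.07 (adjusted p = 0.0599). MYC, at -0.29 ± 0.07 (adjusted p = 0.0400), and CDKN1A, the p21 inhibitor, at -0.47 ± 0.11 (adjusted p = 0.0378), fell. However, MYC did not pass with filterByExpr, with no filter on low counts or with 1 CPM in 4 libraries. CDKN1A did not pass with no filter on low counts, nor in RKO (adjusted p = 0.0539). Neither passed when tested against a fold of 1.2 or with the replicate number as a block. With a library left out, the effect ran from -0.35 to -0.25 for MYC and from -0.57 to -0.41 for CDKN1A. CCND1 (0.11 ± 0.13), FBXO10 (-0.21 ± 0.15) and AXIN2 (0.18 ± 0.13), which encode cyclin D1, an F-box protein and a Wnt feedback scaffold, did not pass.

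The genes that rose were shorter and richer in GC than those that fell. The median length implied by the deposited values was 2941 bp for genes called higher, 5119 bp for genes called lower and 4099 bp for all kept genes, and the median GC content was 55.3%, 44.2% and 48.2%. Across genes, Spearman's rho of the effect with GC was 0.41 in RKO and -0.13 in SW480. With offsets for length and GC in each library, 1193 genes passed, among them 785 of the 1041. Under those offsets 22 S phase genes and 15 splicing factors rose, and 14 immediate-early, 7 YAP and TEAD and 6 mesenchymal genes fell. Oxidative phosphorylation then had 13 genes higher and 1 lower (18.4%), mitochondrial ribosomal proteins 8 and 2 (13.5%), and the proteasome 5 higher (13.5%). The mitochondrial ribosomal and proteasome shares were near the 12.8% of all genes. NDUFB2 and PSMA7 did not pass under the offsets.

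Genes under 5 CPM in some library were tested in a fit over the 14157 genes that edgeR's filterByExpr keeps. Of 4807 such genes 299 passed over both lines (6.22%), 90 higher and 209 lower, and 71 passed in both lines in the same sense.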

How the data were processed

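RNA-seq libraries of RKO and SW480 cells were grouped by their titles, 2 for each of 4 groups. Libraries were made with a stranded mRNA kit, per the labels' protocols. The authors deposited whole-number read counts per gene and FPKM values for the same 8 libraries. In the values, FPKM equals the deposited count divided by a gene length and the library total. Per the submitters' processing notes the build was GRCh38.p13. Which aligner, counter and strand setting were used is not given in the sources used here, and reads of overlapping or antisense genes cannot be separated.

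Genes with at least 5 CPM in every library entered edgeR 4.0.16 (R 4.3.3) quasi-likelihood tests with TMM scaling. The result over both lines came from a model with cell line as an additive covariate (5 residual degrees of freedom), where disagreement between lines counts as spread. The effect in each line and the difference between lines came from a 4-group model (4 residual degrees of freedom). P-values were adjusted by Benjamini-Hochberg over all 9350 genes, and called below 0.05. The standard error is the log2 fold change divided by the square root of F. An exact permutation within lines has 36 arrangements and a smallest two-sided p of 0.0556, so none was run. Alternatives used limma 3.58.1, on log2 of FPKM plus 1 or plus 0.1, and DESeq2 1.42.0. Steps were tested on simulated data. GC content came from GENCODE release 29.

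The groups, the 34 gene lists, the 4 marker lists and the rule for naming genes were chosen with earlier results of these data known, and 11 lists were picked for description, and 5 for differing between the lines, after list results were seen. The rule named CYP1B1 and fixed genes, the 10 of smallest p and 5 of largest fold each way among genes passing over both lines whose libraries overlapped in neither line, 5 each way passing in both lines in opposite senses, and up to 4 members of each described list. Other list members were named after their values were seen. Some genes that the rule or the lists hold are not reported here.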

Additional observations from a re-analysis of the deposited data

Results flagged for a closer look

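The effect of high CYP1B1 differed between RKO and SW480 for 5114 genes, by the test of the difference itself in edgeR. Values below are the RKO minus the SW480 log2 effect, and all had an adjusted p below 0.05. For the genes that opposed each other the difference was 2.98 for MMP15, 2.50 for FSCN1, 2.52 for ZNF341, 2.58 for PHETA1 and 1.82 for TRIM3. It was -3.65 for SLC7A11, -2.66 for SLC6A9, -2.34 for PMAIP1, -2.27 for ZNF697 and -2.18 for NFAT5.

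Among genes that rose over both lines, the rise was larger in SW480 for TFRC (-1.45), SEMA3F (-1.50), SLC2A6 (-1.57), UHRF1 (-0.98), SRSF2 (-0.82), NDUFB2 (-0.54), PAGR1 (-0.43), PCNA (-0.37), ATP13A2 (-0.33), SRSF3 (-0.32) and HNRNPD (-0.27), and larger in RKO for ZNF672 (0.88) and ATP5MC3 (0.40). Among genes that fell, the fall was larger in SW480 for TXNIP (3.02), SAT1 (1.47), ARRDC4 (1.28), LAMB3 (1.03), PLAU (0.97), ITGA5 (0.79), BNIP3L (0.69), EGR3 (0.50), CDKN1A (0.40), EPAS1 (0.39), DNMBP (0.37), RBFOX2 (0.36) and MAPK6 (0.28), and larger in RKO for CREB5 (-0.78). Among genes that did not pass over both lines, the difference was 0.93 for GPX4, 0.62 for CCND1, -0.85 for AHR, -0.61 for TIPARP and -0.53 for NFE2L2.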

How the results depend on the processing

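The number of genes passing over both lines, 1041, was 2187 with DESeq2, 4739 when the mean of the line effects was tested in the 4-group model (1475 of them with opposite signs in the lines), 51 when tested against a fold of 1.2, and from 5 to 1642 with a library left out. With the replicate number as a block it was 0, on 3 residual degrees of freedom. The replicate numbers did not pair the libraries: deviations of same-numbered libraries correlated at -0.07 in RKO and 0.0043 in SW480. The number of genes passing in both lines in the same sense, 977, was 849 with the replicate block, 219 against a fold of 1.2, and from 485 (without RKO control replicate 2) to 1971 (without RKO overexpression replicate 1) with a library left out. The number whose effect differed between the lines, 5114, was 4920 with the replicate block. It stayed within 1.5 times of 5114 in each alternative run, from 3687 to 6169. A group left with 1 library was assumed to vary like the others. Of 89 named gene values under up to 22 settings, 1483 kept direction and call, 338 (65 genes) lost the call, 14 gained it and 11 changed sign. The last were AHR (0.029 without RKO overexpression replicate 2, and from -0.24 to 0.029 with a library left out) and HSD17B12, close to 0 throughout: 0.016 by library size only, 0.0026 with filterByExpr, 0.0036 with no filter, 0.00043 with 1 CPM in 4 libraries, 0.016 on either FPKM scale, 0.041 with length and GC offsets, and from -0.060 to 0.040 with a library left out. The length and GC offsets, and the list counts without each library, were added after the data were seen. In the fits without a library, list counts were lowest and highest where the number over all genes was, so medians are given here. The median was 0.39 to 0.51 for the S phase list and 0.21 to 0.28 for the splicing list. It was -0.33 to -0.30 for the YAP and TEAD list, -0.46 to -0.25 for the immediate-early list and -0.60 to -0.34 for the mesenchymal list. Oxidative phosphorylation had 20 of 76 genes higher by library size only (26.3% against 11.7% of all genes). On log2 of FPKM plus 1 it had 25 (32.9% against 12.2%). The S phase list had 19 and 18 of 48 genes higher under the same settings, larger shares (39.6% and 37.5%). CYP1B1 rested on 10 to 76 reads in every library but those with overexpression.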

Other observations

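In other lists, the members named were chosen after their values were seen, and 11.1% of all genes passed over both lines. Of 29 kept genes of the endoplasmic reticulum unfolded protein response, 4 rose and 3 fell (24.1%, median log2 fold change 0.12). The sign was the same in both lines for 18 of the 29. In both lines, 8 passed in the same sense and 6 in opposite senses. The stress sensors ERN1 (-1.05) and EIF2AK3 (-0.60) and the degradation factor HERPUD1 (-0.86) fell, while the chaperone genes SDF2L1 (0.68), DNAJB11 (0.33) and CALR (0.26) and the translocon gene SEC61B (0.36) rose. Of 23 kept G1 cyclins, CDKs and inhibitors, 4 rose and 2 fell (26.1%, median 0.05). The sign was the same in both lines for 12 of the 23. In both lines, 3 passed in the same sense and 6 in opposite senses. E2F1 (0.52), its partner TFDP1 (0.82), E2F4 (0.29) and the phosphatase CDC25A (0.43) rose, and CDKN1A and RBL2 (-0.30), a pocket protein, fell.

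Of 28 kept p53 targets 21.4% passed (median -0.09): 4 fell, among them the death receptor gene TNFRSF10B (-0.59), BBC3 (-0.97), which encodes PUMA, and BTG1 (-0.72), and 2 rose, PHLDA3 (0.46) and BTG2. Of 42 kept autophagy and lysosome genes 19% passed (median -0.05): 4 rose, including the proton pump subunit ATP6V0D1 (0.74) and the channel MCOLN1 (0.81), and 4 fell, including GABARAPL1 (-0.93) and TFE3 (-0.54). Of 16 kept Wnt and beta-catenin targets 31.2% passed (median 0.05): 3 fell, LEF1 (-0.66), CD44 (-0.72) and MYC, and 2 rose, NKD1 (0.50) and BMP4 (0.41). The same sign in both lines held for 13 of the p53 targets, 23 of the autophagy and lysosome genes and 11 of the Wnt targets. In the same order, 4, 6 and 5 members passed in both lines in the same sense, and 4, 7 and 3 in opposite senses.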
